A study of Mus musculus with 2 samples.

Results

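The genes described here encode the proteins of the cytosolic ribosome (Rpl, Rps and Rplp genes) and of the mitochondrial ribosome (Mrpl and Mrps genes), measured in mouse liver. They were chosen by name alone, as the array's gene names that start with Rpl, Rps, Mrpl or Mrps and a number, or with Rplp and a number, without the Rps6k kinases and without pseudogenes marked -ps. This gave 160 of 31829 gene names, 85 cytosolic and 75 mitochondrial, read by 268 probes. The library labelled Snail came from the liver of a C57BL/6 mouse with the genotype Alb-Cre;CAG-floxed neo-Snail, in which Cre driven by the albumin promoter acts in hepatocytes and the CAG promoter drives the Snail transgene. The WT library came from the liver of a wild-type C57BL/6 mouse. Each group held 1 array, so no difference below has a replicate check, no test was run, and the spread between animals is unknown. By its title, the series deals with fatty liver inflammation and liver tumours under enforced hepatocyte Snail. Age, sex, diet and the state of the sampled tissue (tumour or not) cannot be read from the labels.

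A cytosolic ribosome joins a small subunit, whose proteins are the Rps gene products, to a large subunit made with the Rpl and Rplp gene products, and it translates nearly all cellular mRNA. Its protein genes are transcribed strongly in every cell, and many of their mRNAs start with a pyrimidine tract (the TOP motif) through which mTOR and the RNA-binding protein Larp1 set their translation. The mitochondrial ribosome is built from a separate set of nuclear-encoded proteins, the Mrps (small subunit) and Mrpl (large subunit) gene products, which are imported to translate the few respiratory-chain proteins encoded by mitochondrial DNA. Hepatocytes are rich in both kinds of ribosome.

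The signal of each probe was divided by the 75th percentile of its array and put on the log2 scale, called the scaled signal here. That percentile was 302.1 in the library labelled Snail and 232.7 in the WT library, a ratio of 1.30. Probes were averaged per gene where the scanner software called them well above background in both libraries. Each difference is the scaled signal in the library labelled Snail minus that in the WT library. This call was made for 54.0% of 43020 non-control spots in the library labelled Snail and for 50.7% in the WT library, and no spot was saturated. The single Snai1 probe read 22.3 in the library labelled Snail against 23.2 in the WT library, a scaled difference of -0.44, which is not higher. Where it lies relative to the transgene is unknown here, and it checks nothing about the genotype.

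The cytosolic and the mitochondrial ribosomal protein genes lay on opposite sides of the middle of the transcriptome. The median difference of the 82 measured cytosolic genes was 0.13, that of the 74 measured mitochondrial genes was -0.24, and that of all 15447 genes measured on both arrays was -0.03. The cytosolic median is a 1.09-fold higher and the mitochondrial median a 1.18-fold lower scaled signal in the library labelled Snail, and the gap between them was 0.37, or 1.29-fold. A difference above 0 was found in 66 of the 82 cytosolic genes, beside 47.4% of all genes. A difference below 0 was found in 60 of the 74 mitochondrial genes, beside 52.6% of all genes. The sign of the mitochondrial median depended on the scaling: with the arrays scaled on their spike-in RNAs it was 0.13, that of the cytosolic genes 0.50 and that of all genes 0.35, since this scaling raises every difference by 0.37 and leaves each class at the same distance from all genes.

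**Figure D1:**
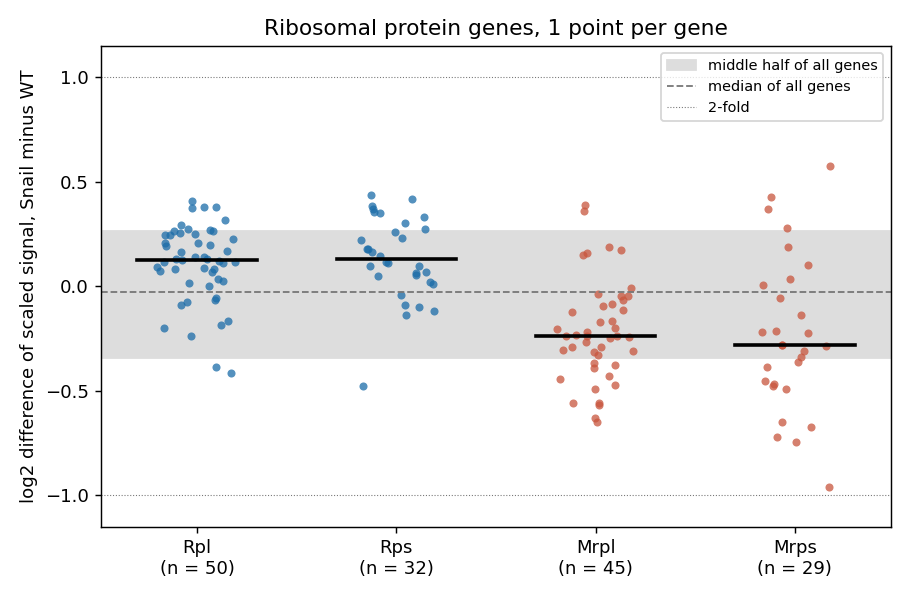
Difference of the scaled signal (log2, library labelled Snail minus WT library) for each measured gene of the 4 groups Rpl, Rps, Mrpl and Mrps, with 1 point per gene, black bars at the group medians, the grey band for the interquartile range of all genes and dotted lines at 2-fold. The Rpl and Rps medians are both 0.13, the Mrpl median is -0.24 and the Mrps median is -0.28, and no point reaches 2-fold.

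No member reached a 2-fold difference in either direction, while 3.97% of all genes were at least 2-fold higher and 6.34% as much lower. All 82 cytosolic genes lay within 1.5-fold, as did 75.4% of all genes. Of the mitochondrial genes, 67 lay within 1.5-fold, and the other 7 were at least 1.5-fold lower, beside 14.5% of all genes. No member was at least 1.5-fold higher, beside 10% of all genes. These 1.5-fold counts depend on the scaling. Cytosolic genes at least 1.5-fold higher numbered 7 under quantile normalization, 3 in the authors' value table, 1 under loess (Rps12), 1 without the filter on dim probes (Rpl6) and 27 under spike-in scaling. Mitochondrial genes at least 1.5-fold higher numbered 2 under quantile normalization, 6 under spike-in scaling and 1 (Mrps36) under normexp, under loess and in the authors' value table. The 7 lower mitochondrial genes became 6 under loess, 4 under quantile normalization, normexp and in the authors' value table, and 1 (Mrps27) under spike-in scaling. The interquartile range was 0.23 for the cytosolic genes and 0.34 for the mitochondrial genes, against 0.61 for all genes.

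The classes overlapped little around their medians. Of the 82 cytosolic genes 79 lay above the mitochondrial median, and of the 74 mitochondrial genes 11 lay above the cytosolic median. Among all measured genes, a difference of -0.24 ranks near percentile 32 and one of 0.13 near percentile 65. Both subunits of each ribosome had like medians. The Rpl and Rplp genes of the large cytosolic subunit had a median of 0.13, with 40 of 50 above 0, and the Rps genes of the small one also had 0.13, with 26 of 32 above 0. The Mrpl genes had a median of -0.24, with 39 of 45 below 0, and the Mrps genes had -0.28, with 21 of 29 below 0. The Mrps genes were the most spread of the 4 groups and held both the lowest and the highest mitochondrial values.

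The probes themselves showed the same split. Of 165 measured cytosolic probes 136 had a difference above 0, and of 94 measured mitochondrial probes 73 had one below 0. Probes of 1 gene differed by a median range of 0.11 in the 52 cytosolic genes with several probes and by 0.10 in the 20 such mitochondrial genes, and no gene's probes spanned more than 1. Repeat prints of single probes gave a technical spread (SD of the log2 difference between spots) of 0.08 over all 239 repeated probes, 0.19 for signals under 100 and 0.05 for signals over 1000. This spread holds noise between spots alone, with no difference between animals, labellings or hybridizations.

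The split can be read on single probes. The 60-base probes shown here, 2 for each class, span an intron by their mm9 positions in the array annotation. Each has a reading frame without a stop codon, which was not checked to be the coding frame of the gene. Their genes are among those with the largest differences. The Rps12 probe lies on the minus strand at chr10:23505428-23505711 and the Rpl39 probe on the minus strand at chrX:34622696-34623990. The Mrps31 probe lies on the plus strand at chr8:23538340-23539688 and the Mrpl22 probe on the plus strand at chr11:57990734-57992784.
Rps12: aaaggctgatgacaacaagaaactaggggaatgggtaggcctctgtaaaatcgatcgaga
Rpl39: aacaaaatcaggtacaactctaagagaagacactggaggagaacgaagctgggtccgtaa
Mrps31: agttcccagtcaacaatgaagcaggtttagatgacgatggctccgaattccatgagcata
Mrpl22: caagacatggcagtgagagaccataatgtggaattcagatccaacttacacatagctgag
The Rps12 probe had a signal of 47540 in the library labelled Snail against 26908 in the WT library, a difference of 0.44 after scaling. The Rpl39 probe had 21511 in the library labelled Snail against 12212 in the WT library, also a difference of 0.44. The Mrps31 probe had 1779 in the library labelled Snail against 2256 in the WT library, a difference of -0.72. The Mrpl22 probe had 622 in the library labelled Snail against 760.6 in the WT library, a difference of -0.67. Before scaling, these cytosolic probes were brighter and these mitochondrial ones dimmer in the library labelled Snail. The mitochondrial class as a whole was not dimmer before scaling, with a higher unscaled signal in the library labelled Snail in 53 of 74 genes, against 79 of 82 cytosolic genes.

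Small-subunit genes led the cytosolic class. Rps19, whose product sits in the head of the small subunit and is mutated in human Diamond-Blackfan anaemia, had a scaled signal of 4.16 in the library labelled Snail against 3.73 in the WT library, a difference of 0.44. Rps12 had 7.36 against 6.94, a difference of 0.42, on both of its probes (0.39 and 0.44). Rps18, a small-subunit protein beside the P-site tRNA, had 5.22 against 4.83, a difference of 0.38. These 3 genes were 1.30-fold to 1.35-fold higher in the library labelled Snail. Rps24 had 4.95 against 4.58, a difference of 0.37, with its 3 probes between 0.12 and 0.69. Rps6, the ribosomal protein phosphorylated by S6 kinase downstream of mTOR, had 4.41 against 4.06, a difference of 0.35, with its 3 probes between 0.30 and 0.40. Rps9 had 6.72 against 6.37, a difference of 0.35.

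Among large-subunit genes, Rpl12, whose product forms the base of the stalk that recruits elongation factors, had a scaled signal of 5.92 in the library labelled Snail against 5.54 in the WT library, a difference of 0.38. The array annotation placed both Rpl12 probes on chromosome 10, while the RefSeq gene lies on chromosome 2, so this value may read a copy. Rpl39, which lines the exit tunnel of the nascent chain, had 3.28 against 2.90, a difference of 0.38. Rpl13a, which in human monocytes is also released from the ribosome to silence inflammatory mRNAs, had 4.44 against 4.06, a difference of 0.38. Rpl21 was the dimmest measured cytosolic gene, with signals of 48.0 in the library labelled Snail and 27.9 in the WT library, and its difference of 0.41 rested on probes at 0.15 and 0.67 and was -0.004 after another background correction. The stalk proteins themselves differed from each other: Rplp0 was 0.21, Rplp1 0.32 and Rplp2 0.01, all above 0.

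Only 16 of the measured cytosolic genes had a difference below 0, and several of the lowest are no core ribosomal proteins. Rps4y2, listed by RefSeq as Rps4l, a relative of the small-subunit gene Rps4x, was the lowest, at 1.03 in the library labelled Snail against 1.51 in the WT library, a difference of -0.48, while Rps4x was at 0.12. Rpl36al, a relative of Rpl36a, had 5.18 against 5.59, a difference of -0.41, while Rpl36a was at 0.27. Rpl22l1, the paralogue that can replace Rpl22, had 3.21 against 3.60, a difference of -0.39, while Rpl22 was at 0.14. In each of these pairs the paralogue was lower in the library labelled Snail and the core gene higher. For Rps4x, the probe on chromosome X, where the RefSeq gene lies, was only at 0.03. Its other probe, at 0.20, was placed on chromosome 3 and may read a copy. Rpl7l1 was at -0.24 (0.14 under spike-in scaling) and Rpl7 at 0.07, and Rps27l was at -0.09 and Rps27 at 0.01. Rps27l turned above 0 under quantile, loess and spike-in scaling and in the authors' value table. Rpl26l1, which RefSeq now lists as the pseudogene Rpl26-ps4, was at 0.29, near Rpl26 at 0.27. Rps19bp1, which encodes a binding partner of Rps19 and no ribosomal protein, was at 0.06. Taken without these 7 genes, the 75 core cytosolic genes had a median of 0.14, with 64 above 0, while the 7 had a median of -0.24, with 2 above 0.

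The core cytosolic genes below 0 were close to it. Rpl10, which joins the large subunit late, in the cytoplasm, was at -0.20 over 3 probes. Rpl11, which with Rpl5 carries the 5S rRNA and can bind Mdm2, was at -0.18, while Rpl5 was at 0.02. Rpl3, near the peptidyl transferase centre, was at -0.16, and Rps27a, made as a fusion with ubiquitin, was at -0.14. Rps28 was at -0.12 and Rps3, at the mRNA entry site, at -0.10. Rpl10, Rpl11, Rps27a and Rps28 turned above 0 under quantile, loess and spike-in scaling and in the authors' value table, Rpl3 under all of these except loess, and Rps3 under all of these except loess, with normexp background correction and on its brightest probe.

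**Figure D2:**
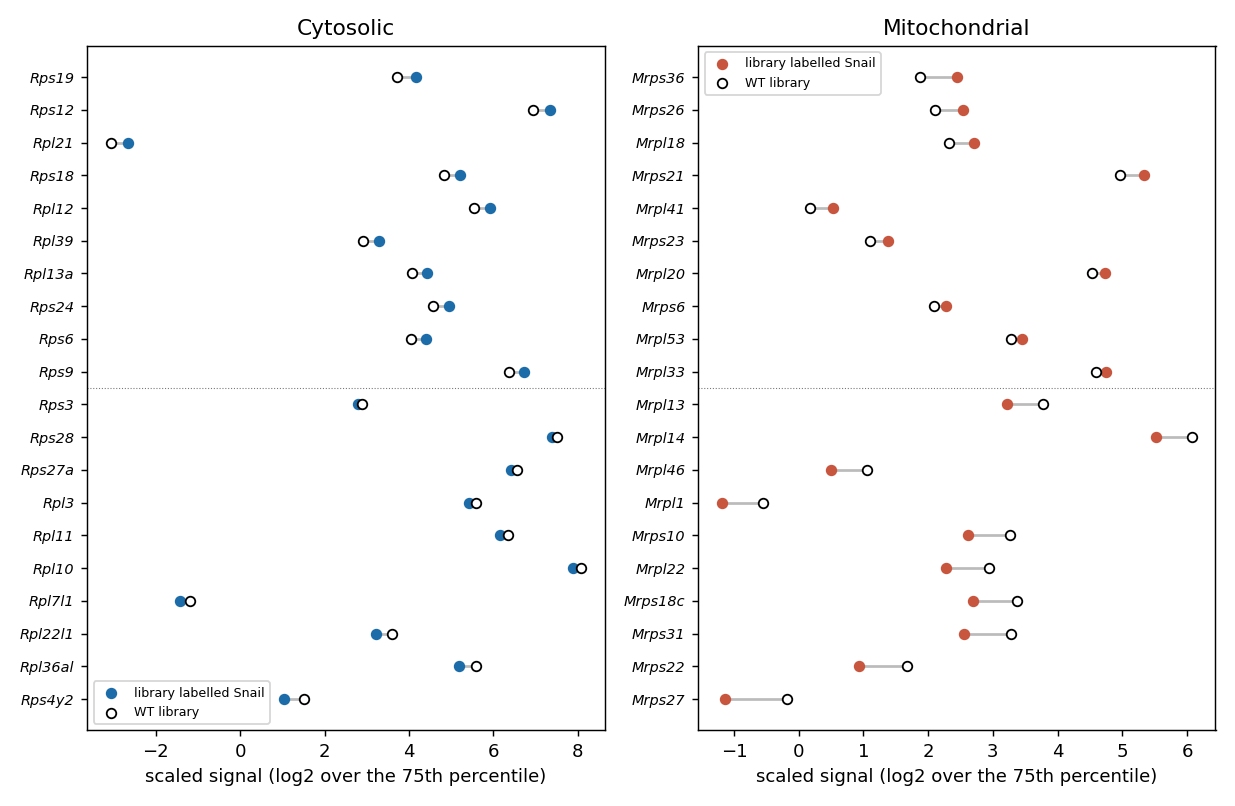
Scaled signal (log2 over each array's 75th percentile) of the 10 highest and 10 lowest differences of each class, with filled circles for the library labelled Snail and open circles for the WT library, on separate axes for the cytosolic and the mitochondrial genes. The lines between the circles are short for the lowest core cytosolic genes, such as Rps3 at -0.10, and longest for Mrps27 at -0.96.

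The mitochondrial class was led downward by small-subunit genes. Mrps27, a pentatricopeptide-repeat protein of the small subunit, had a signal of 136.7 in the library labelled Snail against 204.9 in the WT library, a scaled difference of -0.96. It was the single member that passed 2-fold lower under loess normalization. Mrps22, which is mutated in human disorders of oxidative phosphorylation, had a scaled signal of 0.94 against 1.68, a difference of -0.74. Mrps31 had 2.56 against 3.28, a difference of -0.72. Mrps18c, one of several mammalian relatives of a single bacterial protein, had 2.70 against 3.37, a difference of -0.67, while its relative Mrps18b was at -0.49 and its relative Mrps18a at 0.03. These 4 genes, Mrps10 at -0.65 and the large-subunit genes Mrpl22 at -0.65 and Mrpl1 at -0.63 made up the 7 that were at least 1.5-fold lower as scaled here.

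Further large-subunit genes followed. Mrpl22, an exit-tunnel protein, had probes at -0.67 and -0.63. Mrpl46 had a scaled signal of 0.49 in the library labelled Snail against 1.06 in the WT library, a difference of -0.57. Mrpl14, which lies at the face that meets the small subunit, had 5.52 against 6.08, a difference of -0.56, and Mrpl13 had 3.21 against 3.77, also -0.56. These genes covered a wide span of signal, since Mrpl1 had 132.6 in the library labelled Snail and 158.0 in the WT library, and Mrpl14 had 13828 in the library labelled Snail and 15694 in the WT library. Mrpl12, a stalk protein that also binds the mitochondrial RNA polymerase, was at -0.09, and Mrps12, a protein of the decoding centre, at -0.34.

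The 14 mitochondrial genes above 0 were led by Mrps36, with a scaled signal of 2.44 in the library labelled Snail against 1.87 in the WT library, a difference of 0.57 on probes at 0.53 and 0.62. The product of this gene is now known as a subunit of the alpha-ketoglutarate dehydrogenase complex (Kgd4) and not as a ribosomal protein. Mrps26 had 2.54 against 2.11, a difference of 0.43 on probes at 0.31 and 0.55. Mrpl18, whose human protein binds 5S rRNA on its way into mitochondria, had 2.72 against 2.33, a difference of 0.39. Mrps21 had 5.33 against 4.96, a difference of 0.37. Mrps23 was at 0.28, Mrpl20 and Mrps6 at 0.19 each, Mrpl53 at 0.17 and Mrpl33 at 0.16. Mrpl41 stood at 0.36, but its sign rests on its dimmer probe. That probe, at 61.3 in the library labelled Snail and 26.7 in the WT library, read 0.82, and the brighter one, at 3094 in the library labelled Snail and 2560 in the WT library, read -0.10.

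A few members were printed 10 times, which gives the error between their spots, without any error of labelling, hybridization or scaling. Mrpl34 was at -0.20 ± 0.06 (SD of spots, n = 10) and Mrps35 at -0.36 ± 0.08 (n = 10), both further from 0 than the error of their spots, though above 0 under spike-in scaling. Mrpl50 was at -0.03 ± 0.02 (n = 9). The repeated Rpl23 probe was at 0.44 ± 0.02 (n = 10), while the other probes of Rpl23 were at 0.11 and 0.14. The disagreement between probes of Rpl23 was thus larger than the error of the repeated one.

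Some members had no usable value. The genes Rpl3l, Rpl10l and Rpl39l, paralogues known from muscle (Rpl3l) and testis (Rpl10l and Rpl39l), were below background in both libraries, as was Mrpl21. Rpl6 had 3 probes at 0.14, 0.20 and 0.26, and a further one at chr5:121659155-121659214 (mm9) whose signal was 139.9 in the library labelled Snail and 19.1, not well above background, in the WT library, 5.64-fold in scaled signal. That probe is not in the value of Rpl6. Cytosolic ribosomal protein genes have many near-identical processed copies, and 123 of the 173 cytosolic probes list more than 1 RefSeq accession, against 12 of 95 mitochondrial probes. Whether these accessions belong to copies or to transcripts of the same gene was not checked. A signal from copies therefore cannot be told apart here from that of the cytosolic genes. The array annotation placed 9 cytosolic probes on a chromosome other than that of the RefSeq gene, both Rpl12 probes among them. Without these probes 80 cytosolic genes had a value, Rpl12 not among them, and the cytosolic median stayed at 0.13.

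The classes also differed in signal. The median signal of the cytosolic genes was 18905 in the library labelled Snail and 13044 in the WT library, and that of the mitochondrial genes was 1891 in the library labelled Snail and 1774 in the WT library. Among the genes that are no members, the median difference was lower at higher signal: -0.13 at scaled signals from 4 to 6 and -0.19 above 6. The cytosolic genes at the same signals had medians of 0.18 (n = 32) and 0.12 (n = 35), and thus lay above the other genes of like signal. The mitochondrial genes had -0.33 (n = 9), -0.28 (n = 21), -0.22 (n = 29) and -0.20 (n = 15) in the steps from -2 to 6, below the other genes in each, which had 0.03, -0.01, -0.08 and -0.13. Above a scaled signal of 6 the interquartile range was 0.16 for the cytosolic genes and 0.69 for the other genes.

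**Figure D3:**
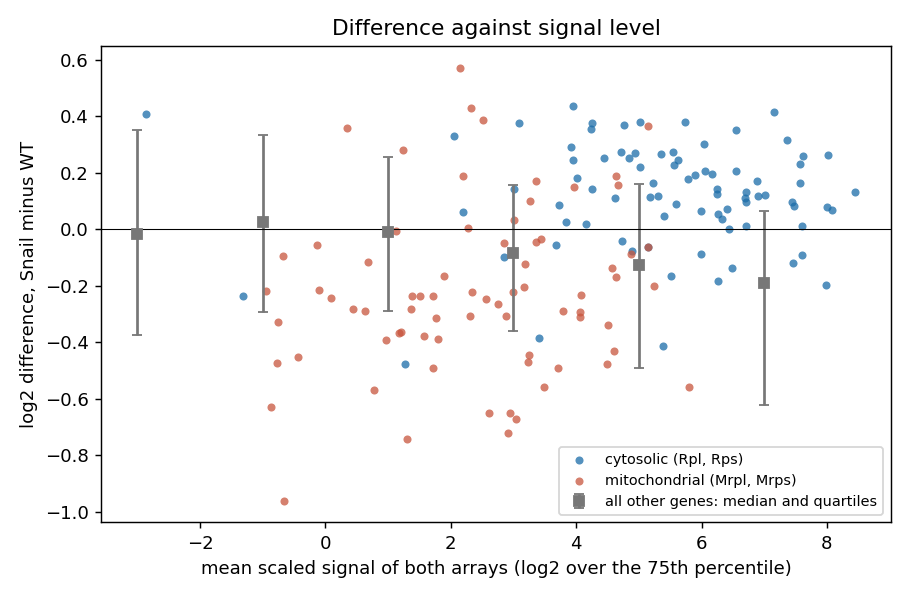
Difference (log2, library labelled Snail minus WT library) against the mean scaled signal of both arrays, with 1 point per ribosomal protein gene and grey squares with bars for the median and quartiles of all other genes in 6 steps of signal. The grey medians decline to -0.19 in the brightest step, while the cytosolic genes there have a median of 0.12.

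The start regions of the genes differed between the classes in pyrimidine tracts. RefSeq start sites (GRCm38.p6) were matched for 128 of the 160 members by symbol. An unbroken run of at least 8 C or T bases between 20 bases before and 30 after the start was found in 34 of 62 cytosolic genes (54.8%) and 16 of 66 mitochondrial genes (24.2%), against 21.5% of all 27025 genes with an entry. The 60 bases round the start are shown for the 4 cytosolic genes with the highest and the 4 mitochondrial genes with the lowest difference that have a single entry, since these ends of the ranking carry the contrast. They run from 40 bases before to 20 after the start, 5′ to 3′ on the gene's strand, with the longest C or T run that reaches into the 20 bases before the start or beyond in capitals. The cytosolic genes lie at chr10:23787190-23787249 (Rps12, minus strand), chr17:33955646-33955705 (Rps18, minus), chr2:32961672-32961731 (Rpl12, plus) and chrX:37085203-37085262 (Rpl39, minus). The mitochondrial genes lie at chr13:99344746-99344805 (Mrps27, plus), chr9:98601660-98601719 (Mrps22, minus), chr8:22411300-22411359 (Mrps31, plus) and chr5:100798719-100798778 (Mrps18c, plus).
Rps12: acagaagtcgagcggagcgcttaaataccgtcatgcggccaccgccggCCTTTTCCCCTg
Rps18: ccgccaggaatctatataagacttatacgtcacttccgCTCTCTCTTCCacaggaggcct
Rpl12: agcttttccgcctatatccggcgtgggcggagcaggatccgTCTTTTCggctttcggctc
Rpl39: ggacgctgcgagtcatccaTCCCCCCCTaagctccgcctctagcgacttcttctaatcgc
Mrps27: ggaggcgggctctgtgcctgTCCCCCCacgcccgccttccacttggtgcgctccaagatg
Mrps22: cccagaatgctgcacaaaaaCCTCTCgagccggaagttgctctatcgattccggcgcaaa
Mrps31: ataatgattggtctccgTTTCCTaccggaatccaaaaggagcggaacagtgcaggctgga
Mrps18c: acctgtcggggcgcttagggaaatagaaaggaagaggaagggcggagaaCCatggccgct
In Rps18 a run of 11 bases starts 2 bases before the start site and in Rpl12 a run of 7 starts at base 2 after it. In Rps12 a run of 11 starts at base 9 after it, while in Rpl39 the longest run, of 9, starts 21 bases before it. The longest runs of Mrps27 (7), Mrps22 (6) and Mrps31 (6) begin upstream of the start, and that of Mrps18c has 2 bases. The median difference was 0.15 in the 34 measured cytosolic genes with a run of at least 8 and 0.11 in the 25 without, and -0.28 and -0.24 in the 16 and 49 mitochondrial genes. Within a class the run therefore separated the differences by little.

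Other short motifs were searched on both strands from 250 bases before to 50 after the start. The ETS-type motif CCGGAAG was held by 38.7% of the cytosolic and 36.4% of the mitochondrial genes, against 9.93% of all genes. AAGATGGCG, a YY1-type motif, was held by 6.45% and 10.6%, against 1.64% of all genes. TATAAA was held by 11.3% and 7.58%, against 15.7% of all genes. The E-box CACGTG was held by 9.68% and 7.58%, against 8.09%. Both classes thus held the first 2 of these more often than all genes did, at like shares. A match describes the letters of this window and is no evidence of a bound factor.

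Genes that work beside the ribosomal proteins were listed by function. The counts about 0 in these lists stand beside 47.4% of all genes above 0 and 52.6% below 0. These counts hold for the scaling used here, since spike-in scaling raises every difference by 0.37. Proteins bound to the cytosolic ribosome and named otherwise had a median of 0.09, with 5 of 7 above 0, among them Gnb2l1, the scaffold protein Rack1 of the small subunit, at 0.19, Naca, of the nascent-chain complex, at 0.17 and Rpsa, a small-subunit protein, at 0.15. Mitochondrial ribosomal proteins named otherwise, listed with the non-ribosomal Oxa1l, had a median of -0.23, with 7 of 8 below 0. Among them were Gadd45gip1 at -0.43, Aurkaip1 at -0.33 and Ict1, a peptidyl-tRNA hydrolase of the large subunit, at -0.25. Both of these lists, which are not of ribosomal proteins alone, thus had medians on the same side of 0 as the class they were set beside. The median of the 11 measured cytosolic elongation factors was 0.10, with 8 above 0, including the poly(A)-binding proteins Pabpc4 at 0.45 and Pabpc1 at 0.39, which were listed with them, while Eef2k, the kinase that inhibits elongation factor 2, was at -0.34. The 34 initiation factors had a median of -0.05, with 14 above 0 and 1 of them, the scaffold protein gene Eif4g3, at least 2-fold higher, at 1.05.

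Genes of translation control had a median of 0.24, with 12 of 18 above 0, and 1 of them passed 2-fold: Eif4ebp3, an inhibitor of the cap-binding protein, at 1.03. The kinase gene Rps6ka1 was at 0.79 and the growth regulator Myc at 0.61, with a signal of 62.6 in the library labelled Snail against 31.6 in the WT library, while Larp1, the TOP mRNA-binding protein, was at -0.32. Nucleolar assembly genes had a median of 0.06, with 34 of 61 above 0 and 1 at least 2-fold lower, Rrp12, of pre-ribosome export, at -2.33, with dim signals of 23.9 in the library labelled Snail and 92.7 in the WT library. Genes of RNA polymerases I and III, which make ribosomal and transfer RNA, also had a median of 0.06, with 15 of 26 above 0. Both of these lists were thus split nearly evenly about 0.

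On the mitochondrial side, translation factors had a median of -0.14, with 13 of 20 below 0 and 1 at least 2-fold lower, Gfm1, mitochondrial elongation factor G1, whose signal was 2361 in the library labelled Snail against 4071 in the WT library, a difference of -1.16. Mitochondrial tRNA ligases had a median of -0.19, with 14 of 18 below 0, and cytosolic ones had -0.14, with 14 of 19 below 0, including Tars at -0.50. Both kinds of tRNA ligase thus leaned the same way as scaled here, whichever ribosome they serve. Under spike-in scaling, which adds 0.37, both of these medians lie above 0. Genes of mitochondrial biogenesis had a median of -0.10, with 15 of 26 below 0. Among them Tfb1m, the dimethyltransferase of the mitochondrial small-subunit rRNA, was at -1.26, with a signal of 212.8 in the library labelled Snail against 393.6 in the WT library, Polg2, a subunit of the mitochondrial DNA polymerase, was at -0.91, and Ppargc1a, the coactivator of mitochondrial biogenesis, was at -0.71.

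**Figure D4:**
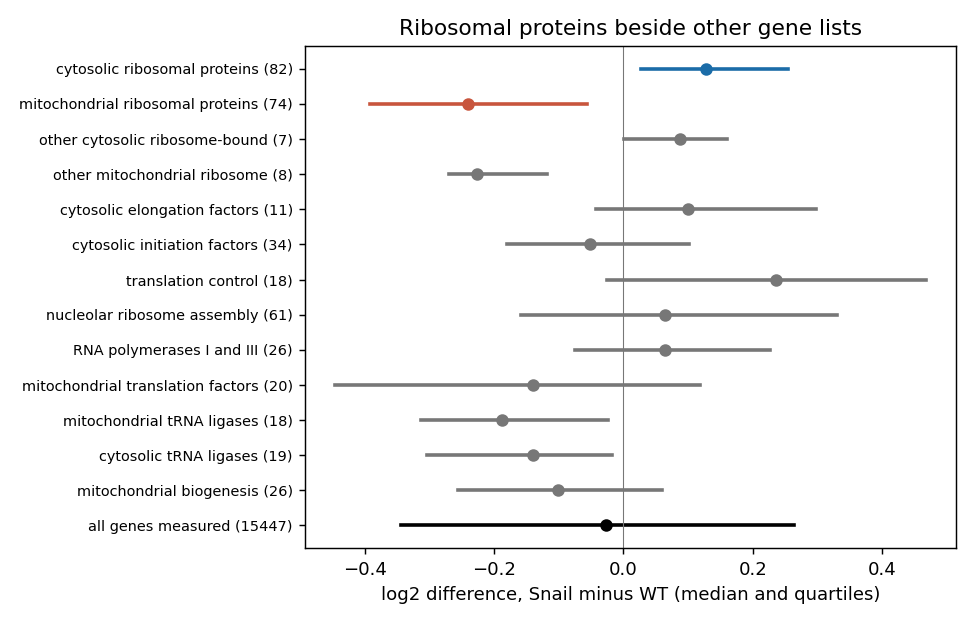
Median (point) and quartiles (line) of the log2 difference, library labelled Snail minus WT library, for the cytosolic and mitochondrial ribosomal proteins, 11 other gene lists and all measured genes, with the number of measured genes in brackets. The mitochondrial ribosomal proteins at -0.24 and their differently named partners at -0.23 have the lowest medians, and the translation control list at 0.24 the highest.

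Cell-type markers differed between these livers too, and their part in the ribosomal protein values was not tested. In bulk tissue, fewer cells of a type and less RNA per cell cannot be told apart. All 7 hepatocyte markers were lower in the library labelled Snail as scaled here, beside 52.6% of all genes below 0. Their median was -0.63, and their summed scaled signal (linear) was 1390 against 2209 in the WT library. Before scaling, Hnf4a (18506 against 16858 in the WT library) and Asgr1 (16383 against 13541) were brighter in the library labelled Snail. The other hepatocyte markers were dimmer there. Albumin, the defining transcript of hepatocytes and the source of the Cre promoter, was bright in both, with a signal of 190813 in the library labelled Snail and 226792 in the WT library. Proliferation markers were at least 2-fold higher in 3 of 3 measured genes, beside 3.97% of all genes, with a sum of 3.16 against 0.61. A further 3 passed the background call in the library labelled Snail alone, among them Cdk1 at 13.2, close to the lowest signal so called there, 12.9. Top2a was below background in both libraries. Neutrophil markers were above 0 in 5 of 5, with a median of 0.92 and S100a8 at 1.99 and S100a9 at 1.57, while their sum of 80.7 in the library labelled Snail against 76.0 in the WT library is mostly Csf3r, at 0.02. Macrophage markers were above 0 in 4 of 5, with a median of 0.07 and a sum of 53.5 against 40.7. Marco had the largest difference, with a signal of 3862 in the library labelled Snail against 1049 in the WT library. The other measured macrophage markers lay between -0.03 (Csf1r) and 0.15 (Clec4f). Stellate cell and fibroblast markers were above 0 in 2 of 5, Col1a1 at 1.32 and Col3a1 at 0.95, and Acta2 passed the background call in the library labelled Snail alone, while their sum of 28.4 against 51.6 is mostly Dcn, at -0.94. Of the bile duct markers Sox9 was at 1.55 and Spp1 at 0.58, while Krt19, Krt7, Epcam and Cftr were below background in both libraries, and none of the 6 muscle markers was measured. Endothelial markers were above 0 in 4 of 6, T and NK cell markers in 3 of 5, B and plasma cell markers in 3 of 4 and erythroid markers in 2 of 5.

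**Figure D5:**
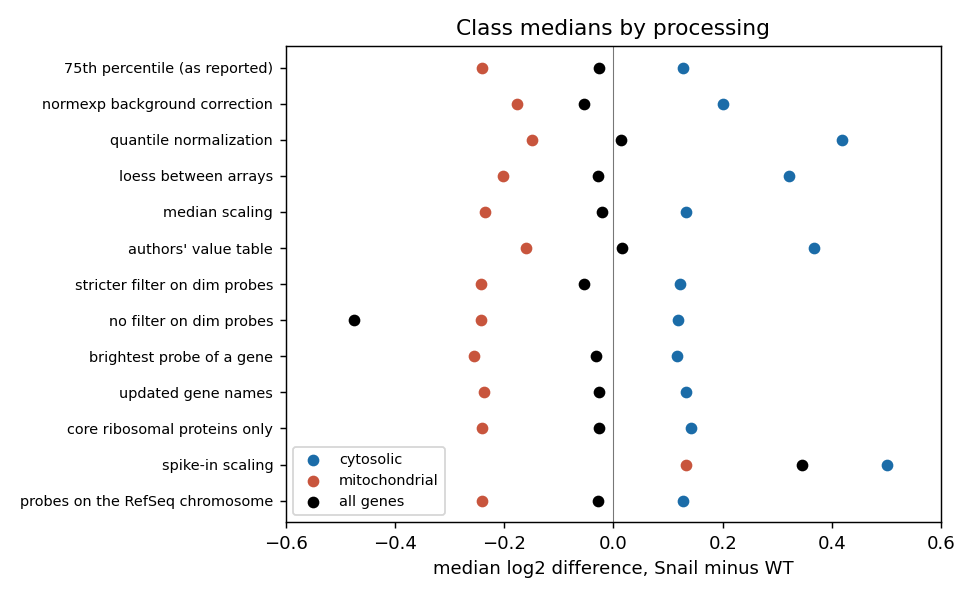
Median log2 difference (library labelled Snail minus WT library) of the cytosolic genes, the mitochondrial genes and all genes under the reported processing (top) and 12 alternatives. The cytosolic median lies above the mitochondrial one in all 12, by between 0.36 and 0.57, while the mitochondrial median is above 0 under spike-in scaling, at 0.13. Median and spike-in scaling shift every gene alike and so leave the gap at 0.37 by construction.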

How the data were processed

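Total RNA of 2 livers, 1 per group, was labelled with Cy3 and hybridized to 1-colour Agilent arrays. The submitters' processing notes name Agilent Feature Extraction 9.5.1.1. Per the file headers, the processed intensity values the authors deposited had the background subtracted within each array, with no scaling across arrays. The value table the authors deposited holds linear intensity values of the same arrays. Each column has the median 17.3, and sorted values of the columns differ by at most 0.108. The columns thus hold nearly the same distribution, as quantile normalization gives, though the method is not stated and the centring stays unknown. The value table was used as an alternative, named through the probe identifiers, and is not independent of the quantile alternative.

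Processed signals were divided by the 75th percentile of the array's non-control spots and put on the log2 scale. The 287 spots marked as outliers on either array were left out, spots of a probe were averaged, and probes well above background in both libraries were averaged per gene. With 1 array per group there was no test and no p-value, and precision is limited by the number of arrays. Genes were counted at 2-fold and at 1.5-fold. Both arrays lay on 1 slide, so no batch could be set apart.

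The members, the gene lists and the rule for named genes were chosen with earlier results of these data known. That rule takes the 10 members of each class with the largest difference in each direction, the members printed 10 times, those below background, the stalk genes, the paralogue pairs, and the 3 largest differences of each list. Genes named beyond it (Rpl5, Mrpl12, Mrps12, Mrps18a, Mrps18b, Larp1, Rpl6, Rps23rg1, Alb and the single cell-type markers) were chosen after their values were seen. Gene names are those of the array design. Probe coordinates are on mm9, and RefSeq symbols and start regions on GRCm38.p6. Alternatives were normexp background correction (offset 50), quantile and loess normalization, median scaling, the value table, a stricter filter (signal of at least 100) and none, the brightest probe, updated names (66.3% of probes matched) and core genes alone. Spike-in scaling (4 probes with signals over 1000) and leaving out probes on another chromosome were chosen after seeing the data. Python 3.11.15, numpy 2.4.6, pandas 2.3.3, matplotlib 3.10.9, R 4.3.3 and limma 3.58.1 were used.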

Additional observations from a re-analysis of the deposited data

How the results depend on the processing

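The cytosolic median stayed above 0 and above that of all genes under each of the 12 alternatives. Of 36 medians and gaps, 26 moved by less than the technical spread of 0.08 (log2) and 10 by more. The 2-fold counts were 0 to begin with, so their constancy says little. Of 662 values of single named genes, 228 moved by more than that spread. The gap between the class medians ran between 0.36 and 0.57. Median and spike-in scaling shift every gene alike, so the gap and the distance to all genes could not move under them. Their gaps are among the 26. Quantile normalization gave a cytosolic median of 0.42, a mitochondrial median of -0.15 and a gap of 0.57. Loess gave a cytosolic median of 0.32 and a gap of 0.52, with 1 mitochondrial gene (Mrps27) at least 2-fold lower. The authors' value table gave 0.37, -0.16 and 0.53. With updated names 1 cytosolic gene was at least 2-fold lower, Rps23rg1 at -1.07, which the array's own names do not place among the members. Spike-in scaling, chosen after seeing the data, gave 0.50 and 0.13, since it shifts every gene by 0.37. The cause was not tested for the others, apart from the one with no filter on dim probes. With no filter, dim probes were set to the lowest signal called well above background, 12.9 in the library labelled Snail and 13.8 in the WT library. A gene at this floor in both libraries has a difference of -0.47 after scaling, and the median of all genes was then this value. The mitochondrial median of -0.24 lay above it, but the place of either class against a median set by the floor says nothing about the genes. Of the 12 alternatives, 11 kept the mitochondrial median below 0 and 11 kept it below all genes. Among single genes, Mrpl41 was at -0.10 under the stricter filter and with its brightest probe. No paired analysis was possible because each group holds 1 array. Signals under 100 had a technical spread of 0.19, which limits dim probes such as those of Rpl21 and the dimmer Mrpl41 probe.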
